A study of Rattus norvegicus with 2 samples.

Results

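Small heat shock genes and their co-chaperone gene Bag3 were followed in muscle-derived stem cells (MDSC) grown from the skeletal muscle of diabetic rats. The 10 genes were picked by symbol: the 7 small heat shock genes Hspb1, Hspb2, Hspb3, Hspb6, Hspb7, Hspb8 and Cryab, the co-chaperone gene Bag3, the Hsp70 gene Hspa8 and the transcription factor gene Hsf1. All 10 were found among the 18489 genes of the array. They were chosen with the differences between these same arrays already known, so their differences are given as a description, with no test. The cells came from male obese Zucker fa/fa rats, which carry a leptin receptor mutation, become obese and insulin resistant, and serve as a model of type 2 diabetes. The series set MDSC labelled late diabetes against MDSC labelled early diabetes, in a study of implanting such cells for erectile dysfunction, and each group was 1 Affymetrix Rat Gene 1.0 ST array. Both samples were therefore obese fa/fa, grown in DMEM with fetal bovine serum, and lean rats were not analysed here. The labels name 5.6 mM and 22 mM glucose for both samples without saying which was used, and give neither the age of the rats nor the number of rats or wells behind an array.

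Small heat shock proteins are chaperones built around an alpha-crystallin domain. They bind unfolding proteins without using ATP and keep them from aggregating until an Hsp70 chaperone such as Hspa8 refolds them or passes them on for breakdown. Bag3 links Hspb8 to Hsp70, and in muscle this complex sends damaged cytoskeletal proteins such as filamin to autophagy. Hsf1 is the transcription factor that switches on many heat shock genes under protein stress by binding inverted repeats of a short unit, the heat shock element.

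Of the 7 small heat shock genes, Hspb8 and Hspb7 were higher in the late array and the other compared members were within 1.5-fold. The Hspb8 protein, also called Hsp22, is the small heat shock partner of Bag3. Its normalized intensity was 1246 in the late array and 175 in the early array (log2 10.28 and 7.45), which made it 7.12-fold higher, a log2 difference of 2.83. Hspb7, a small heat shock gene of heart and skeletal muscle whose protein binds filamin C, was at 543 in the late array and 220.0 in the early array (log2 9.09 and 7.78). It was 2.47-fold higher, a log2 difference of 1.30. Both early values lay above the background level but under the floor set for comparing genes. The background level was an intensity of 112, under which lay 95% of the values of 1199 olfactory receptor genes in the 2 arrays. The floor was the median over the gene values of the 2 arrays (log2 8.03, intensity 261). Genes entered the comparison if either array reached this floor. Hspb8, Hspb7 and Hspb2 were the members that stood under the floor in the early array and above it in the late array. Among the 9738 genes compared, 45 had a larger upward difference than Hspb8 and 362 had a larger one than Hspb7. Each of these genes was measured by 1 probe set on 1 array per group, so no SD, standard error or p-value exists for them. The only repeated measurement was that of genes with 2 probe sets, whose late minus early differences had an SD within a gene of 0.222 on the log2 scale over 409 genes bright in both probe sets. With dim probe sets taken in as well, which makes 760 genes, that SD was 0.298. It is the nearer guide for Hspb8, Hspb7 and Hspb2 with their dim early values. The 760 genes include the 409 bright ones, and no SD was taken over dim genes alone. Both SDs cover probe error and not the spread between cultures or animals.

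**Figure D1:**
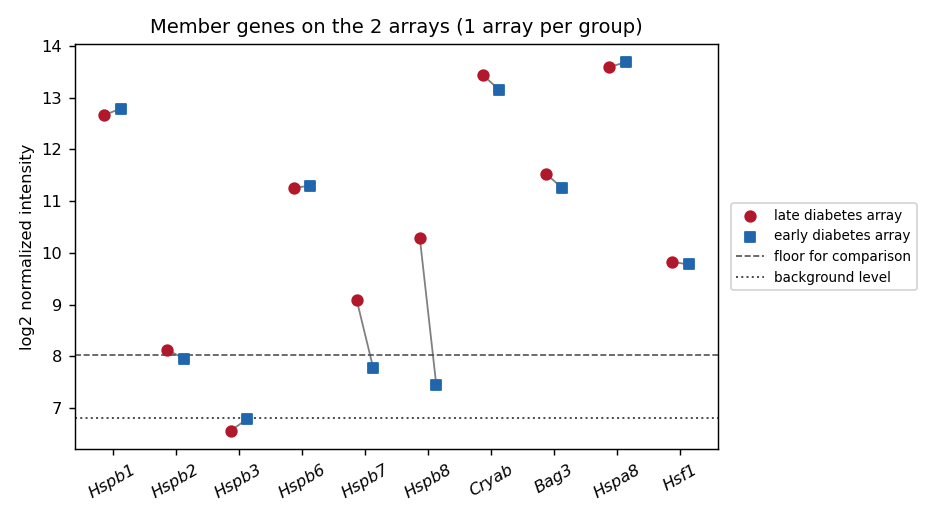
Log2 normalized intensity (vertical axis) of the 10 genes (horizontal axis) in the late diabetes array (red circles) and the early diabetes array (blue squares), 1 array per group. The dashed line is the floor for comparison (8.03) and the dotted line the background level (6.81). The long links are those of Hspb8 and Hspb7, and Hspb3 lies below the background level in both arrays. Levels of different genes come from different probes and are not to be ranked against each other.

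Promoter sequences are shown for these 2 genes and for Bag3, Hspb1 and Hspa8, because the first pair differed between the arrays and the other 3 encode their partners in the same chaperone system without a difference of that size. They are RefSeq sequences of the rat GRCr8 assembly, 250 bases before the start of transcription, printed 5′ to 3′ on the strand of the gene. Capitals mark heat shock elements of 2 units (GAANNTTC or TTCNNGAA), except in Hspb7, where they mark a MEF2 site, the sequence bound by the MEF2 muscle factors.
Hspb8, chr12:45837058-45837307, plus strand: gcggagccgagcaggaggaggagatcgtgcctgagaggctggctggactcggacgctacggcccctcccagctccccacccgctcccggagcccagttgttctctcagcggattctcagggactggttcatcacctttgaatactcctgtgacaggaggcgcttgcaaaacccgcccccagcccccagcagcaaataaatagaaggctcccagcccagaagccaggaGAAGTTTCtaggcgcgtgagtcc
Hspb7, chr5:159010509-159010758, plus strand: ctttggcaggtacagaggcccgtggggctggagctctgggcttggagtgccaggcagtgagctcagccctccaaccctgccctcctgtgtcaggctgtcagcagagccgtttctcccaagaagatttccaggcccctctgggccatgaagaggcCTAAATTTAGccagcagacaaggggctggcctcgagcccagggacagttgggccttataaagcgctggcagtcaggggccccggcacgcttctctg
Bag3, chr1:192533210-192533459, plus strand: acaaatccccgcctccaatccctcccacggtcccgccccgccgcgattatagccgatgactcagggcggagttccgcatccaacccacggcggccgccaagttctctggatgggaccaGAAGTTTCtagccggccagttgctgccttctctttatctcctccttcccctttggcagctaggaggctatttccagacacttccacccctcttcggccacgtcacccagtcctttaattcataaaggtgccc
Hspb1, chr12:26432302-26432551, minus strand: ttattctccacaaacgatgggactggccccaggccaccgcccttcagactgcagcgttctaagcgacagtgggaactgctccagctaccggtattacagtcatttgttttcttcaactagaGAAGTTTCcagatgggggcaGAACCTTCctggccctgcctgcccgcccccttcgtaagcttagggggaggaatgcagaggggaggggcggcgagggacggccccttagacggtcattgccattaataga
Hspa8, chr8:50080264-50080513, plus strand: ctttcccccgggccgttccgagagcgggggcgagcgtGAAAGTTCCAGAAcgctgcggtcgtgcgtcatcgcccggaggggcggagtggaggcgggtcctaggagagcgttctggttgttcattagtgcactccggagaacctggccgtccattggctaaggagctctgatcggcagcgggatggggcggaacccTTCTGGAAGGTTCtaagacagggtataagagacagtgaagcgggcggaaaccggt
The RefSeq table held a promoter for 7 of the 10 genes. Those of Hspb2, Cryab and Hsf1 were not analysed here. A 2-unit heat shock element was found in 5 of the 7, those of Hspb8, Bag3, Hspb1, Hspb6 and Hspa8, against 13.5% of all 33465 rat promoters of the same length. The motif was searched on both strands, and each of its forms is its own reverse complement. In Hspb8, Bag3, Hspb1 and Hspb6 the units of a match stand as GAAGTTTC. The Hspb8 match began 23 bases before the start and the Bag3 match 132 bases before it. The start used for Hspb8 lies inside the span of its RefSeq gene, since another transcript model begins farther upstream. Hspa8 held 4 overlapping matches, which join into 2 elements of 3 units (GAANNTTCNNGAA or TTCNNGAANNTTC), a form present in 0.663% of all promoters. None was found before Hspb7 or Hspb3. Of the 7 promoters, those of Hspb7 and Hspb3 held a MEF2 site, at 96 bases before the start in Hspb7 and 51 bases before it in Hspb3, against 2.96% of all promoters. The genes with a heat shock element thus held both Hspb8, which was higher in the late array, and Bag3, Hspb1, Hspb6 and Hspa8, which were within 1.5-fold. A match describes the letters in this window and is not evidence of binding.

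**Figure D2:**
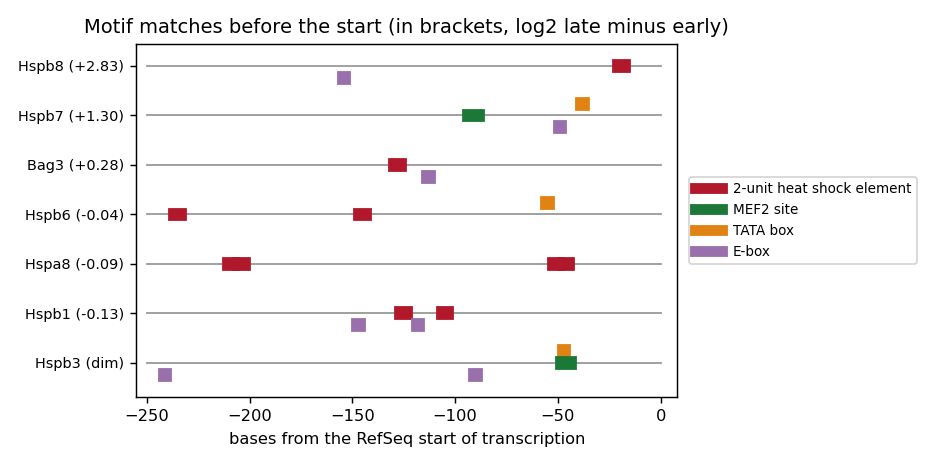
Positions of motif matches in the 250 bases before the RefSeq start of transcription (horizontal axis, in bases, 0 at the start) for the 7 genes with a promoter sequence, ordered by their late minus early log2 difference, which stands in brackets; Hspb3 is marked dim because it lay below background in both arrays. Red bars are 2-unit heat shock elements, green bars MEF2 sites, orange bars TATA boxes and violet bars E-boxes. Red bars stand in Hspb8 and in 4 genes that were within 1.5-fold, and Hspb7 has none.

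Cryab and Hspb2 lie next to each other on rat chromosome 8. Cryab encodes alphaB-crystallin, a chaperone of the lens and of striated muscle that binds desmin filaments. It was at 11072 in the late array and 9100.3 in the early array, a log2 difference of 0.28. That is more than the SD of 0.222 of genes bright in both probe sets. Hspb2, which in muscle forms a complex with Hspb3, was at 279.6 in the late array and 248 in the early array, a log2 difference of 0.17. The 2 neighbours thus had the higher value in the late array by amounts that lay 0.11 apart. That is less than the probe set SD of 0.298, the one with dim probe sets taken in. Hspb2 was the member nearest the floor, with a late value of log2 8.13 against the floor of 8.03. Hspb3, the muscle partner of Hspb2, was at 94.1 in the late array and 110.4 in the early array, below the background level in both, so no fold is given and it was the 1 member left out of the comparison.

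Hspb1 and Hspb6 had slightly lower values in the late array. Hspb1, known as Hsp25 or Hsp27, binds actin and is phosphorylated under stress. It was at 6494 in the late array and 7084 in the early array, a log2 difference of -0.13. Hspb6, or Hsp20, is phosphorylated by cyclic nucleotide-dependent kinases during smooth muscle relaxation and also binds Bag3. It was at 2446 in the late array and 2517 in the early array, a log2 difference of -0.04. Both differences were smaller than the probe set SD. Hspb8 stood 2.96 above Hspb1 and 2.87 above Hspb6 in its late minus early difference.

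Bag3, the co-chaperone that holds Hspb8 and Hsp70 together, was at 2956 in the late array and 2434 in the early array. Its log2 difference of 0.28 was also more than the bright-gene probe set SD of 0.222. The difference of Hspb8 exceeded that of its partner Bag3 by 2.55 on the log2 scale. Hspa8, the constitutive Hsp70 also called Hsc70, was covered by 9 probe sets that name it. They ran between 10335 and 14051 with a median of 12473 in the late array, and between 11174 and 15027 with a median of 13224 in the early array. The late value was the lower in 9 of 9 probe sets, by differences between -0.11 and -0.07 on the log2 scale with an SD of 0.012, and the gene mean differed by -0.09. The RefSeq table lists 33 Hspa8 pseudogenes, so these probe sets may share signal and are not independent readings of the gene. Hsf1 was at 908 in the late array and 877 in the early array, a log2 difference of 0.05. Under quantile normalization or removal of a brightness trend the sign of the Hsf1 difference turned, so it has no direction.

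Of the 9 members compared, Hspb8 and Hspb7 (2 members) passed 2-fold upwards in the late array and 0 passed it downwards. Over all 9738 compared genes, 569 (5.84%) passed 2-fold upwards and 303 (3.11%) downwards, 8.95% in either direction. The members' median difference was 0.17, beside 0.06 for all compared genes. Since the members were chosen with these differences known, nothing is read from that count. The other 7 compared members all lay within 1.5-fold, between -0.13 and 0.28, as did 81.4% of all compared genes, with 18.6% beyond 1.5-fold in either direction. Relations between member genes could not be measured, because over 2 arrays every pair of genes correlates at 1 or -1.

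**Figure D3:**
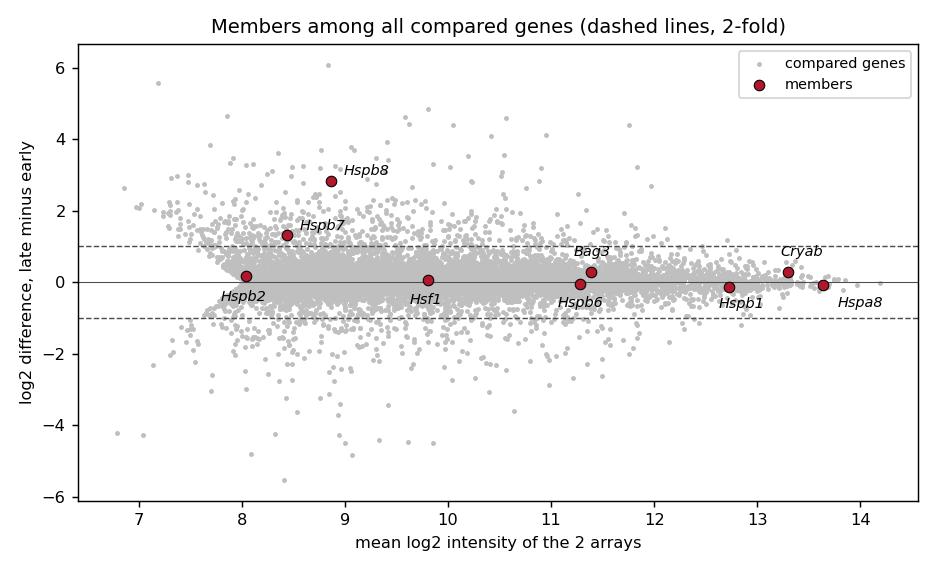
Late minus early log2 difference (vertical axis) against the mean log2 intensity of the 2 arrays (horizontal axis) for the 9738 compared genes (grey points), with the 9 compared members in red and dashed lines at 2-fold. Hspb8 (2.83) and Hspb7 (1.30) lie above the upper line, and the other 7 members lie between -0.13 and 0.28.

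The rest of the chaperone system was read from 10 lists of genes with known roles. Of 132 listed genes 121 were measured and 104 compared, and 97 of these (93.3%) were within 1.5-fold, against 81.4% of all compared genes. At 1.5-fold, 5 were higher and 2 lower in the late array, where 12.1% of all compared genes were higher and 6.48% lower. Their median difference was 0.0015 on the log2 scale. Of the listed genes, 10 stand in several lists and are counted in each of those lists but a single time in these totals. The lists were chosen with earlier results known, so these shares are a description.

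The nearest relatives of the members were dim or within 1.5-fold. Of the other genes listed as small heat shock genes, Hspb9 (106 in the late and 116 in the early array) and the sperm tail gene Odf1 (199.7 and 165) stayed under the floor. So did Hspb11 (235 and 182), which carries the family symbol but encodes a subunit of intraflagellar transport. The 5 other BAG family genes, which encode regulators of Hsp70, were all compared. Bag1 had the higher late value (2160 in the late and 1524 in the early array, log2 difference 0.50) and Bag2 the lower (2909 and 3624, -0.32), and Bag4, Bag5 and Bag6 lay between -0.15 and 0.22. Among the other heat shock factors, Hsf2 differed by -0.03, Hsbp1, which encodes a protein that binds heat shock factors, by -0.16, and Hsf4 and Hsf2bp were under the floor in both arrays.

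Among 9 compared Hsp70 and Hsp110 genes, 1 passed 2-fold. This was Hspa12a, a distant relative of Hsp70, at 346 in the late array and 126 in the early array (2.76-fold). The early Hspa12a value lay under the floor of 261 and close to the background level of 112. Hsph1, an Hsp110 that resets Hsp70, was 1.66-fold lower (1066 in the late and 1767 in the early array). The stress-inducible Hsp70 gene Hspa1b was at 985 in the late array and 1024 in the early array, the mean of 2 probe sets. Its near-identical copy can share the signal of Hspa1b. Of 27 compared J-domain genes, whose proteins feed clients to Hsp70, Dnajc12 was 2.06-fold higher (539.8 and 262 in the late and early arrays). Its early value lay next to the floor of 261. The log2 difference of Dnajc12 was under 2-fold with quantile normalization (0.986), the brightness trend removed (0.995) or 16 added to each intensity (0.997). It stayed past 2-fold with median centring (1.08) and with the brightest probe set (1.04). Dnajc9, a histone chaperone, was 1.57-fold higher (706 and 450.2), and the other 25 were within 1.5-fold. Of 14 compared Hsp90 genes and co-chaperones, Fkbp5, a glucocorticoid-induced co-chaperone, was 1.56-fold higher (638 and 408). None of the 14 chaperonin and prefoldin genes was 1.5-fold apart.

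Known Hsf1 target genes, listed without the 10 members, gave no common direction. Of 13 compared, 5 had the higher and 8 the lower value in the late array, with a median of -0.06. Over all 9738 compared genes, 5578 had the higher and 4152 the lower late value, with a median of 0.06. Beside 81.4% of all compared genes, 11 of the 13 were within 1.5-fold. The 2 that were not were lower, Hsph1 and the collagen chaperone gene Serpinh1 (3510 in the late array and 6074 in the early array, 1.73-fold). Dnajb1, the J-domain gene that Hsf1 induces together with Hsp70, was at 1489 in the late array and 1217 in the early array (log2 difference 0.29).

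The autophagy genes listed with Bag3 include general autophagy genes such as Ulk1, Becn1 and Atg5. All 18 that were compared lay within 1.5-fold, beside 81.4% of all compared genes. Of the 18, 6 had the higher and 12 the lower late value, with log2 differences between -0.49 and 0.36. The median of the 18 was -0.08, beside 0.06 for all compared genes. Of all compared genes, 5578 had the higher and 4152 the lower late value. Stub1, the ubiquitin ligase CHIP, had the higher late value (2217 in the late and 1759 in the early array, log2 difference 0.33). The autophagy receptor gene Sqstm1 had the lower (5435 and 6807, -0.32). Synpo2, which links Bag3 to autophagosome formation in muscle, lay below background in both arrays. Among 12 compared filament and Z-disc genes, 11 were within 1.5-fold, among them the filamin gene Flnc (2330.4 in the late and 2609 in the early array). Des, which encodes the desmin filaments that Cryab binds, was 1.58-fold higher (310.0 and 196). The early Des value lay under the floor. Of this list 18 genes were measured, and those not compared stayed under the floor in both arrays. Among them, Myot (82.6 in the late and 189 in the early array) and Actn2 (101 and 146) had lower late values. Both of these late values lay below background. Synm was about level (134 in the late and 132 in the early array).

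**Figure D4:**
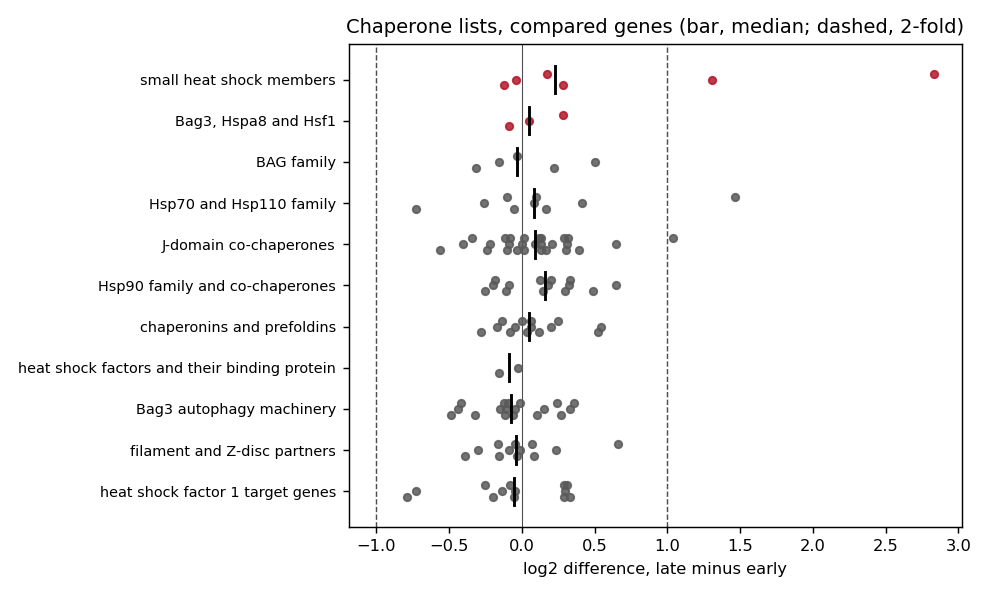
Late minus early log2 difference (horizontal axis) of each compared gene, with 1 row for each list; the members are in red, in 2 rows at the top, and the other lists in grey, black bars are medians over compared genes and dashed lines mark 2-fold. Hspb8 and Hspb7 among the members, Hspa12a among the Hsp70 genes and Dnajc12 among the J-domain genes lie right of the right-hand dashed line, and no gene lies left of the left-hand one.

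Markers of several cell types also differed between the arrays. The labels call the cells skeletal muscle stem cells, and of 7 satellite cell and myoblast markers only Itga7 reached the floor (457 in the late and 1319 in the early array). Pax7, the defining gene of satellite cells, was at 166 in the late array and 164 in the early array. Of 10 markers of differentiated skeletal muscle, a tissue that expresses Hspb7, 3 were compared, and all 3 had the lower late value. The summed intensity of the 10 was 3153 in the late array and 8112 in the early array, with Myh4 and Mylpf below background in both. That gap came from the myosin heavy chain genes Myh1 (1728 in the late and 5196 in the early array) and Myh2 (73.5 and 1395), and the 2 values of each of the other 8 genes were within 1.5-fold of each other. Of 7 compared smooth muscle and pericyte markers, 6 had the lower and 1, Des, the higher late value. The largest difference was that of Cspg4, at 437 in the late and 2279 in the early array, 5.22-fold lower. No other gene of this list passed 2-fold. The sum over all 8 was 27202 in the late and 36705 in the early array. The 7 fibroblast markers went both ways. Of 5 compared, 3 had the lower late value, the collagen genes Col1a1 and Col1a2 and Thy1, and 2 the higher, Pdgfra and Fap, which was at 289 in the late array and 46.7 in the early array, below background there, and so at least 2.58-fold higher. Their sum, 23805 in the late array and 33128 in the early array, follows the bright collagen genes and Thy1. The 7 leukocyte markers summed to 1317 in the late array and 857 in the early array, a gap that came from Cd68 and Cd14, with the pan-leukocyte gene Ptprc below background in both. The 3 endothelial markers summed to 414 in the late array and 322 in the early array. None reached the floor, and the gap came from Tek (198 in the late and 94.0 in the early array), while Cdh5 and Vwf had slightly lower late values. The 5 adipocyte markers summed to 495 in the late array and 562 in the early array, and none reached the floor. These sums add levels of different probes and follow the brightest of them. The part of these markers in the results for Hspb8 and Hspb7 was not tested, and in bulk RNA fewer cells of a type and less RNA per cell cannot be told apart.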

How the data were processed

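Per the labels, RNA of cultured cells was hybridised to 1 array per group, so the number of arrays limits all precision. The authors deposited normalized intensity values on a linear scale, which were identical for all 29214 probe sets in both deposited tables. How they corrected, summarised and normalized the probes is not given in the sources used here. No pseudocount was added before taking log2. A single gene was named by 20164 probe sets, 328 several, 8696 none and 26 carried a damaged symbol. Probe sets naming 1 gene were averaged by gene, giving 18489 genes. The floor and background level are given above. The array medians were 183 (late) and 187 (early). Members and lists were chosen with earlier results of these data known. Genes named are the members, their family members, list genes among the 2 highest or 2 lowest of a list and at least 1.5-fold apart, examples by role chosen after their values were seen, neighbouring genes and cell type markers. Motifs were searched in RefSeq promoters (GRCr8). The array files carry no genome build, and gene names are those of the deposited table. Alternatives were 5 other scalings or summaries, 3 filters, 2 fold thresholds and the mean in place of a list's median. Protein sequences were not analysed here. The calculations were tested on simulated data, in which bright genes were changed by known amounts well past the fold threshold. That checks the code and not the precision of the arrays or of dim values. Python 3.11.15, numpy 2.4.6 and pandas 2.3.3 were used.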

Additional observations from a re-analysis of the deposited data

How the results depend on the processing

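No paired analysis was possible because each group was 1 array. No replicate could be left out, and no test threshold applies. A value is said to have moved when it shifted by over 0.222 on the log2 scale, the probe set SD, and a count when it changed by over 1.5 times. Under the alternatives, 187 recomputed values stayed within these limits and 10 moved. Over 5 scalings and summaries Hspb8 ranged between 2.72 and 2.87 and Hspb7 between 1.25 and 1.34. Hsf1 ranged between -0.03 and 0.08. With the brightness trend removed, Hspb3 stood at -0.51. The trend was fitted to the compared genes, and Hspb3, below background in both arrays, was not one of them. No direction is therefore read from this value. The members at least 2-fold higher numbered 1 instead of 2 with the 75th percentile filter, which leaves Hspb7 out, and 1 at 3-fold, which leaves only Hspb8. All compared genes at least 2-fold higher numbered 280 and those lower 177 with the 75th percentile filter, 1177 and 631 at 1.5-fold, and 237 and 129 at 3-fold. The BAG family median moved to 0.22 with the 75th percentile filter, which keeps 3 of its 5 genes.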

Other observations

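For several members the nearest measured gene on either side was read from the order of protein-coding genes in RefSeq. Near Hspb8, Suds3, a corepressor subunit gene that is separated from it by another protein-coding gene, was at 1889.6 in the late array and 1744 in the early array, and Ccdc60 on the other side lay below background in both. Beside Bag3, Tial1, an RNA-binding protein gene, was at 1055 in the late array and 772 in the early array, and Inpp5f, a phosphoinositide phosphatase gene, at 425 and 286, log2 differences of 0.45 and 0.57. Near the Hspb2 and Cryab pair, with another protein-coding gene between, Dixdc1, a Wnt pathway gene, was 1.54-fold higher (1742 in the late and 1129.7 in the early array). Beside Hsf1, the tendon factor gene Scx was 1.72-fold lower (321 in the late and 552 in the early array) and Dgat1, which makes triglyceride, had a log2 difference of 0.48. Beside Hspb3, the sorting nexin gene Snx18 was 1.75-fold lower (494 in the late and 863 in the early array).

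Other motifs were searched on both strands of the 7 promoters. A TATA box (TATAAA) stood in 3, those of Hspb6, Hspb7 and Hspb3, against 12.9% of all promoters, and the match in Hspb3 overlaps its MEF2 site. An E-box (CANNTG) stood in 5, against 65.5% of all promoters. A CArG box and an NF-kB site stood in 0 of the 7, against 1.497% and 3.54% of all promoters.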
